A study of Sus scrofa with 12 samples.

Results

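The cytosolic ribosomal proteins are the protein subunits of the ribosomes that translate nuclear-encoded messages, and their mRNAs were measured in the Longissimus dorsi (LD) muscle of 12 Iberian pigs. The genes were chosen by symbol alone: RPL or RPS followed by a number with an optional final letter, together with RPLP0, RPLP1, RPLP2 and RPSA, and without kinases or pseudogene symbols. In the gene tables, 48 of 25880 genes met this rule, 23 of the large subunit and 25 of the small subunit, and 14857 of the 25880 genes carried a symbol at all. A symbol was needed for a gene to be found, so subunits without one in the name table used, among them RPS6 and RPS27, were not analysed here.

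The pigs were Iberian males, castrated according to the study's methods, fattened outdoors on acorns and grass, and they received no experimental treatment. They had been picked for divergent breeding values for myoglobin (MB), the oxygen-binding pigment of muscle, with 6 pigs in the High MB group and 6 in the Low MB group. Muscle myoglobin content was 2.48 ± 0.0657 mg/g (SD, n = 6) in the High MB pigs and 1.39 ± 0.147 mg/g (SD, n = 6) in the Low MB pigs. Each pig gave 1 paired-end RNA library, so replicates are separate animals, but the tissue is a whole muscle sample and not a sorted cell type. ACTA1 and CKM, the muscle forms of actin and creatine kinase, summed to between 26000 and 97120 CPM (the counts of a gene scaled to a common library total), whereas the myosin heavy chain and myoglobin markers of the muscle list were not in the table under a symbol.

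Between 38914271 and 91318334 counts were assigned to genes per pig, of which 600255 to 1669525 fell on the 48 genes. Libraries separated into 5 with over 50000000 gene counts (2 High MB and 3 Low MB) and 7 with fewer (4 High MB and 3 Low MB). The labels name no sequencing batch, so this depth class was read from the totals. Reads with more than 1 alignment, which are not given to any gene, made up 6.08 to 6.62% of the fragments in the deeper libraries and 4.4 to 5.76% in the others.

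A ribosome has a large subunit, which joins amino acids, and a small subunit, which reads the message. Most subunits are present in a single copy per ribosome, and cells keep their synthesis in step. The mRNAs are known for short leaders that start with a run of pyrimidines (the 5′ terminal oligopyrimidine, or TOP, motif), through which mTOR signalling controls their translation. In striated muscle, RPL3, a protein of the peptidyl transferase region, is accompanied by the paralogue RPL3L, whose mRNA is known almost only from heart and skeletal muscle.

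All 48 genes were matched to one RefSeq gene each on the Sscrofa11.1 assembly, and they lay on 15 chromosomes. To show the feature that marks this gene family, the 30 bases around the annotated start of one RefSeq transcript per gene (15 before and 15 from the first base) were read from the assembly on the strand of the gene. The longest run of C and T is in capitals, and the 7 genes printed are 5 with long runs, from both subunits and the ribosomal stalk, and the RPL3 pair with short ones.
RPL29: gcggCCTTCCTTTCTCTTCCggccccaggc
RPS4X: ccgcggaCCTTCTTTTCTCCgcgcgccgga
RPL10: caggcgtgggagcgCCTCTTTTCCTTCggc
RPLP2: cccccgcgccggcgTCTTCCTTTCTgtccc
RPLP0: cggcgtacagCCCTCCTCTCgccaggcgtc
RPL3: gccagTCTgggatttatatatcgcacgcct
RPL3L: cctgcggctcaacagCCCTCTgctgaccgc

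These windows lie at chr13:34121811-34121840 (minus strand) for RPL29, chrX:58155165-58155194 (minus) for RPS4X, chrX:124927234-124927263 (plus) for RPL10, chr2:507876-507905 (plus) for RPLP2, chr14:40223929-40223958 (minus) for RPLP0, chr5:8922682-8922711 (plus) for RPL3 and chr3:40005033-40005062 (plus) for RPL3L. The run was 16 bases long in RPL29, 13 in RPS4X and RPL10, 11 in RPLP2 and 10 in RPLP0, against 3 in RPL3 and 6 in RPL3L. A run of at least 8 pyrimidines was present in 20 of the 48 windows (41.667%), 12 of the large and 8 of the small subunit, and in 2250 of 19559 windows of all protein-coding RefSeq genes (11.504%). The letters CTTCCG, the core recognised by ETS transcription factors, were found on either strand between 250 bases before and 50 after the start in 24 of the 48 genes and in 20.553% of all genes. The pyrimidine run and this core can overlap, and a match describes the annotated start only, which may lie some bases from the start used in muscle.

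Of the 48 genes, 47 had enough counts to be tested. The gene that did not pass, RPL10L, is a single-exon paralogue of RPL10 known from testis and had 0 counts in all 12 pigs, which allows a level of up to 0.0329 to 0.0771 CPM, depending on the library, at the limit of 3 counts (counting error only). Counts of the other 47 ranged from 1982 to 166239 per pig. On the log2 CPM scale, all 47 had means among the 1966 highest of 13373 genes tested (14.7%).

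Levels were compared between genes as CPM per kb of coding sequence. The median of the 47 genes was 578.9, and 40 of them lay within 2-fold of it. RPLP1, an acidic protein of the stalk that receives elongation factors, had the highest mean level at 3979, followed by RPL10, which joins the large subunit late in its assembly, at 1725, and RPS2, a protein of the messenger entry site, at 1496. RPS2 has a RefSeq transcript of 5903 bases, and per kb of exon its level was 223.5, so its place in the order depends on the length used. At the other end, RPL3 had a mean of 82.87, RPL36A, which contacts transfer RNA at the exit site, 136.1, and RPL3L 228.8, which was 2.76 times the level of RPL3. RPS27L, a p53-responsive paralogue of RPS27, followed at 242.1. A stretch elsewhere in the assembly with at least 98% identity covers 71.7% of the RPL36A transcript, and 1 covers 97.0% of that of RPLP1. Reads from such stretches can be lost as not unique, and their part in these levels was not tested. The per-length level of RPLP1 was above that of RPL10 in every pig, whereas the ranges of RPL10 and RPS2 overlapped.

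**Figure D1:**
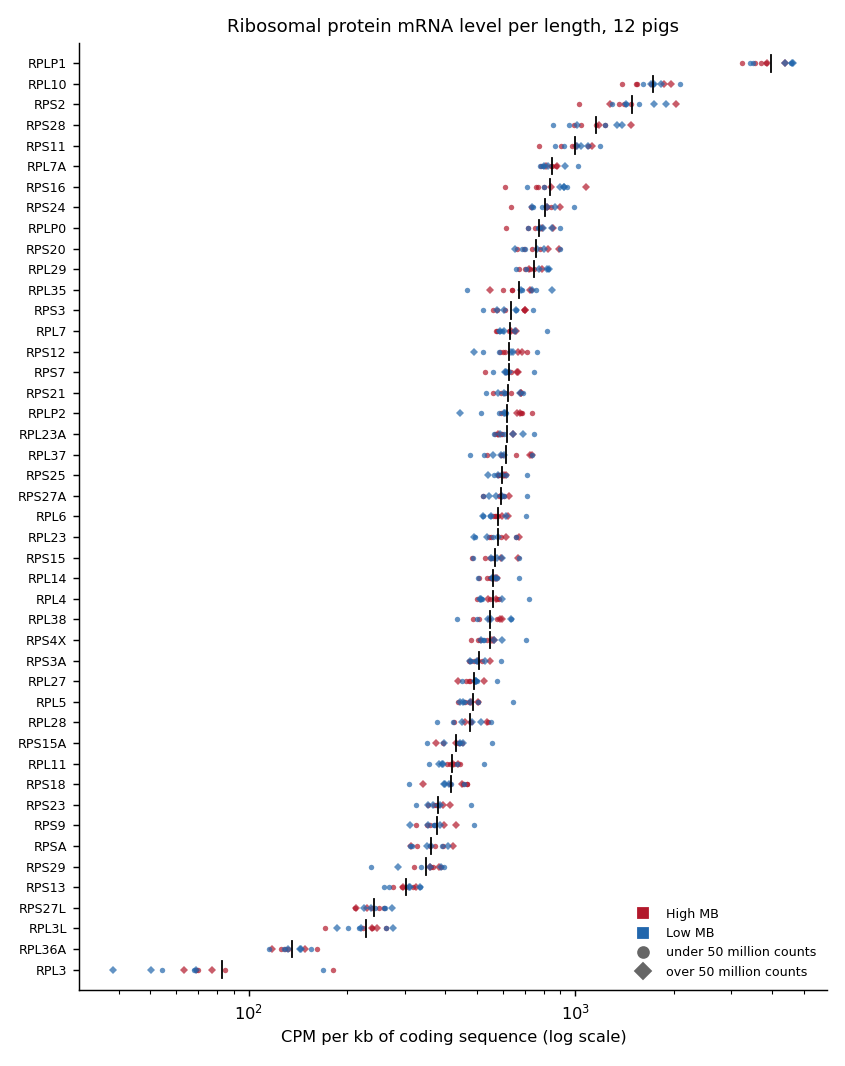
Level of the tested genes in CPM per kb of coding sequence (log axis), with 1 point per pig coloured by group, diamonds for libraries over 50000000 counts, and a black bar at the mean of 12 pigs. RPLP1 stands above all others at 3979, RPL3 is lowest at 82.87 with 2 pigs far to the right of the other 10, and the groups intermingle for almost every gene.

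Genes with a pyrimidine run of at least 8 had a median level of 614.2 CPM per kb of coding sequence (20 genes, from 430.9 to 1725), and the 27 without one had 486.0 (from 82.87 to 3979). The median SD of log2 CPM over the pigs was 0.15 in both sets. No gene with such a run lay below 430.9, but RPLP1, the highest of all, had none.

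The comparison between High MB and Low MB pigs asked whether ribosomal protein mRNAs differ with the genetic potential for myoglobin. None of the 47 genes was called different by edgeR's quasi-likelihood test at an adjusted p-value under 0.10 with an absolute log2 fold change over 0.58, nor was any of all 13373 genes tested (0%). At an unadjusted p-value under 0.05, 1 of the 47 genes passed (2.13%), RPLP2, against 8.46% of all genes. That gene was higher in the High MB group, as were 5.33% of all genes at that level, while 3.13% of all genes were lower. A lower level of an mRNA in whole muscle cannot be told apart from fewer cells that carry it.

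The median log2 fold change (High MB over Low MB) of the 47 genes was -0.02, and that of all genes tested was -0.016. The interquartile range of the 47 genes ran from -0.07 to 0.03, compared with -0.14 to 0.17 for all genes. Of the 47 genes, 17 had a positive fold change, 8 of 22 in the large subunit and 9 of 25 in the small subunit, beside 46.9% of all genes. With library totals alone as the scale, 38 of 47 genes and 65.6% of all genes were positive and the medians were 0.07 and 0.08, and with upper quartile factors 30 of 47 and 57.2% were positive, whereas RLE factors gave a median of -0.012 with 20 of 47 and 48.5% positive, so the sign of these small values turned under some scalings.

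The 95% interval of the fold change bounded most of these differences. In 46 of 47 genes the whole interval lay between -0.58 and 0.58 on the log2 scale, which held for 51.8% of all genes. Among those 46 genes the lowest bound was -0.47 and the highest was 0.49, and the median standard error of the 47 genes was 0.11 against 0.18 for all genes. The exception was RPL3, whose interval ran from -0.46 to 1.02.

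**Figure D2:**
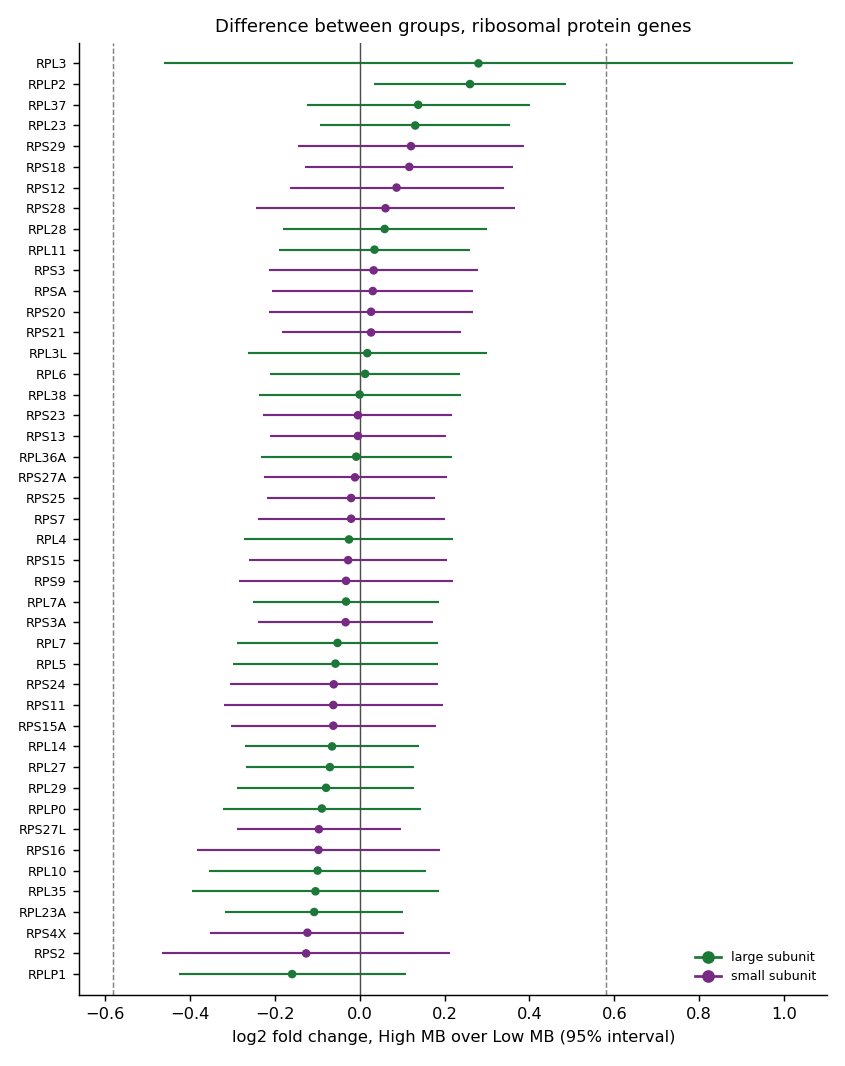
Log2 fold change of the tested genes (positive where higher in High MB) with its 95% interval, green for the large and purple for the small subunit, with dashed lines at -0.58 and 0.58. RPLP2 is the gene whose interval leaves out 0, and RPL3 is the gene whose interval crosses a dashed line.

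RPLP2, which pairs with RPLP1 in the stalk, had 205.8, 237.2, 239.5, 230.8, 256.7 and 235.0 CPM in High MB pigs 1 to 6, and 210.4, 178.7, 203.7, 214.0, 211.5 and 154.7 CPM in Low MB pigs 1 to 6. In 5 of 6 High MB pigs it was above every Low MB pig, and High MB pig 1 lay inside the Low MB range. The log2 fold change was 0.26 (SE 0.11, 95% interval 0.03 to 0.49), and the adjusted p from edgeR's quasi-likelihood test was 0.563 (0.0272 before adjustment). It was 0.32 within the deeper libraries and 0.25 within the others, and in neither was RPLP2 below an unadjusted p of 0.05, nor was it without High MB pig 5, Low MB pig 2 or Low MB pig 6. RPLP1 had the opposite sign, with 1119, 1300 and 1508 CPM (lowest, median and highest) in the High MB group and 1182, 1549 and 1606 in the Low MB group, and a log2 fold change of -0.16 (SE 0.13). RPLP0, the base of the stalk, had a log2 fold change of -0.09 (SE 0.11). Its value turned to 0.068 within the deeper libraries and to 0.023 without High MB pig 2 and Low MB pig 4. For RPLP1 and RPLP0 the groups overlapped, and neither passed an unadjusted p of 0.05. A near-identical copy elsewhere in the assembly covers 97.0% of the RPLP1 transcript, whereas none was found for RPLP0 or RPLP2.

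Other large subunit genes with the lowest p-values also overlapped between the groups. RPL23, which faces the small subunit, had 230.2, 254.6 and 284.1 CPM in High MB and 207.7, 232.0 and 277.5 in Low MB pigs (log2 fold change 0.13, SE 0.11). RPL37 had a log2 fold change of 0.14 (SE 0.12). RPL23A, at the exit of the peptide tunnel, had -0.11 (SE 0.10), and RPL10 had -0.10 (SE 0.12), which turned to 0.165 within the deeper libraries and 0.025 without High MB pig 2 and Low MB pig 4. RPL5 and RPL11, which carry the 5S RNA into the large subunit and bind MDM2 when assembly fails, had medians of 425.9 and 223.2 CPM in High MB pigs and 416.2 and 207.2 in Low MB pigs. Their log2 fold changes were -0.06 (SE 0.11) and 0.04 (SE 0.11). RPL5 turned to 0.152 within the deeper libraries and to 0.042 without High MB pig 2 and Low MB pig 4. RPL11 turned to -0.049 within the libraries under 50000000 counts.

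In the small subunit, RPS4X, the X-linked form of RPS4, had 380.7, 414.7 and 444.9 CPM in High MB and 407.3, 431.2 and 559.1 in Low MB pigs, with a log2 fold change of -0.12 (SE 0.11) that turned to 0.041 within the deeper libraries. RPS18 and RPS29, proteins of the head of the subunit, had 0.12 (SE 0.11) and 0.12 (SE 0.12), and RPS27L had -0.10 (SE 0.09). RPSA, also described as a laminin receptor, had medians of 323.8 CPM in High MB and 317.0 in Low MB pigs. RPS27A, made as a fusion with ubiquitin, had medians of 279.9 and 275.1 CPM. In none of the 47 genes were the 6 pigs of one group all above or all below the 6 of the other, which was so for 57 of all 13373 genes tested (0.426%).

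As a share of all gene counts, the 48 genes took 1.561, 1.861, 1.55, 1.777, 1.71 and 1.828% in High MB pigs 1 to 6, and 1.569, 1.533, 1.606, 1.947, 1.558 and 1.715% in Low MB pigs 1 to 6. The means were 1.71 ± 0.133% (SD, n = 6) and 1.66 ± 0.157% (SD, n = 6), a difference of 0.0599 percentage points that is smaller than either SD. Low MB pig 4 was highest and Low MB pig 2 lowest, so the Low MB range enclosed the High MB range. Counts of large subunit genes were 1.19 ± 0.063 times (SD, n = 6) those of small subunit genes in High MB pigs and 1.197 ± 0.0462 times (SD, n = 6) in Low MB pigs.

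**Figure D3:**
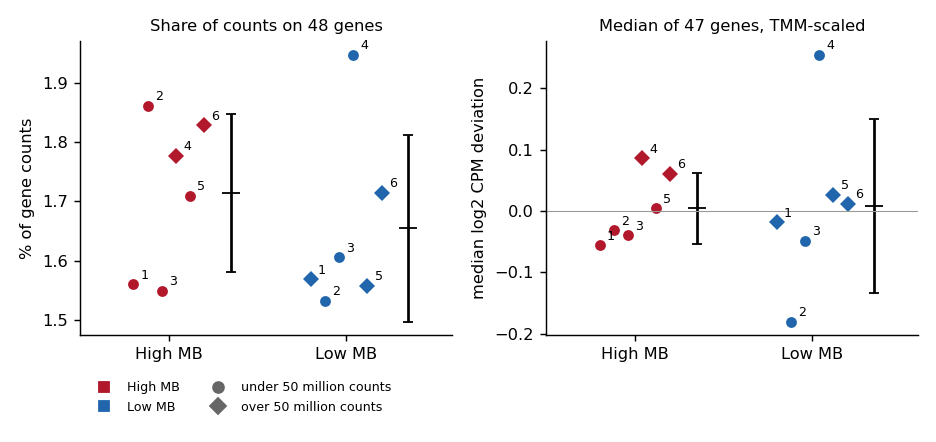
Left, percent of gene counts on the 48 genes by pig. Right, median over the 47 tested genes of log2 CPM minus the gene's mean, after scaling by the trimmed mean of M-values (TMM). Points are pigs numbered by individual, diamonds are libraries over 50000000 counts, and bars are mean and SD. Low MB pig 4 is highest in both panels and Low MB pig 2 lowest in both, while High MB pig 2 is second highest only on the left.

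The sign of the difference between groups changed with depth class, and the difference between depth classes was not tested. Within the 5 deeper libraries the share was higher in High MB pigs by 0.1885 percentage points, and within the other 7 it was lower, with a difference of -0.0248. The deeper class held only 2 High MB and 3 Low MB pigs. Low MB pigs 2 and 4, the lowest and highest in share, were both among the other 7, which held 3 Low MB pigs. The median log2 fold change was 0.11 within the deeper libraries, with 40 of 47 genes positive, and -0.08 within the others, with 14 of 47 positive, against medians of 0.014 and 0.003 for all genes. Without Low MB pig 4, the median was 0.05 and 36 of 47 genes were positive, compared with a median of 0.009 for all genes, and without High MB pig 2 they were 0.006 and 25 of 47, compared with -0.006 for all genes. In these fits 0 of the 47 genes were called, beside 0.00691% of all genes (1 gene) within the deeper libraries and 0% in the other 3 fits.

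The likeness of the 47 genes in their pattern from pig to pig rested in part on 2 pigs. For each gene, Pearson's r over the 12 pigs was taken between its log2 CPM and the mean of the standardised values of the others. The median r was 0.71 for the 47 genes and -0.006 for all genes tested, and r was over 0.5 in 39 of 47 genes compared with 3.38% of all genes. Without Low MB pigs 2 and 4, the lowest and highest in the mean of the family, the median over the other 10 pigs was 0.48 for the 47 genes and -0.015 for all genes, and r was over 0.5 in 21 of 47 genes compared with 7.67% of all genes. These values are a description, since all genes of a pig share its library and scaling. Over all 12 pigs, RPS23, of the small subunit, had the highest r at 0.93. The lowest were RPL3L at -0.12, RPS27L at 0.07 and RPLP2 at 0.19.

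The pig that stood out was Low MB pig 4, which had the highest level in 31 of the 47 genes and a median deviation of 0.26 on the log2 scale. Low MB pig 2 was the lowest in 20 genes, with a median deviation of -0.18. The other 10 pigs had median deviations between -0.06 and 0.09. High MB pig 2 had the second highest share of counts but a median deviation of -0.03 after scaling. The 10 genes most abundant over all 12 pigs took 12.98% of counts in High MB pig 2, against 15.96 to 24.51% in the other pigs. The TMM factor of High MB pig 2 was 1.214, the highest of the 12.

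**Figure D4:**
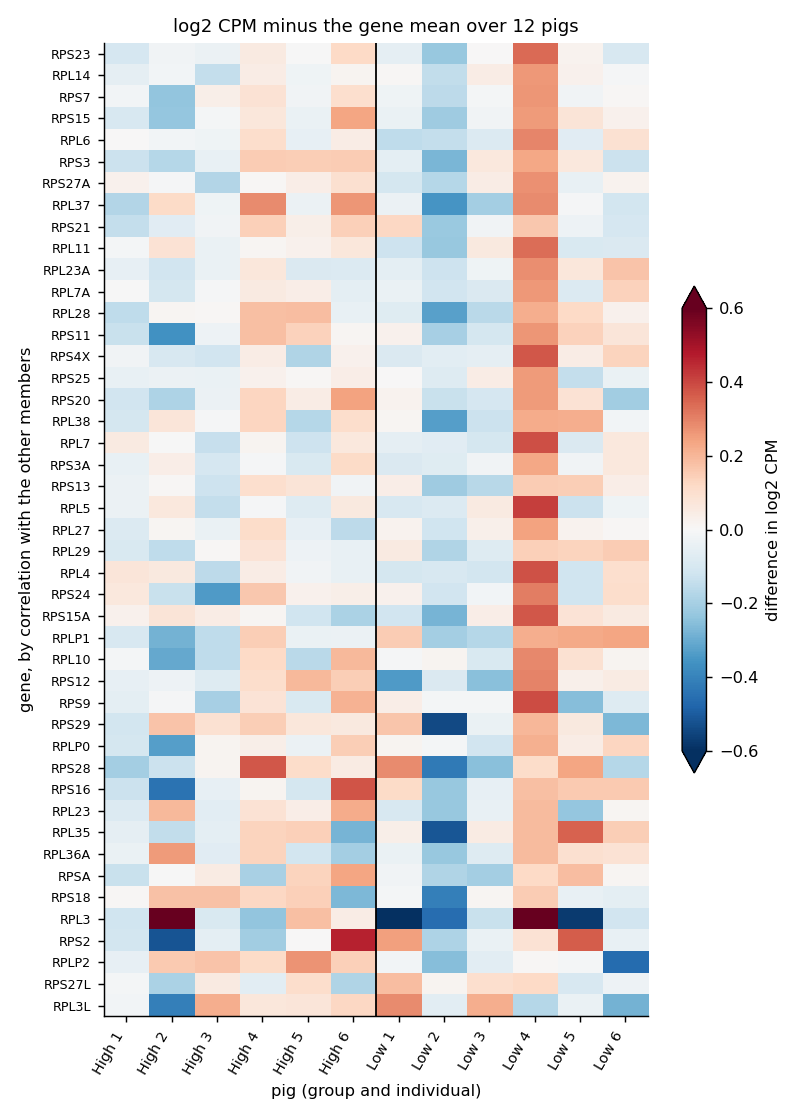
Log2 CPM of the tested genes minus the mean of each over 12 pigs, red above and blue below, with colours saturated beyond 0.6. Columns are pigs, High MB left of the line, and rows run from the gene most correlated with the other members (RPS23, 0.93) to the least (RPL3L, -0.12). The column of Low MB pig 4 is red in nearly all rows, that of Low MB pig 2 is mostly blue, and RPL3 departs in High MB pig 2 as well.

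Most ribosomal protein genes were steady across pigs. The median SD of log2 CPM was 0.15, compared with 0.33 for all genes tested and 0.25 for the 1966 genes of at least the same level. RPS25, RPS3A and RPL14 had the smallest SDs, each about 0.10, and between the lowest and the highest pig RPS25 ranged from 204.0 to 268.8 CPM. The largest SDs were 0.65 in RPL3, 0.27 in RPS2 and 0.24 in RPS28. RPS2 had 906.4, 1225 and 1788 CPM (lowest, median and highest) in High MB pigs and 1144, 1323 and 1673 in Low MB pigs. High MB pig 2 was lowest for RPS2 and High MB pig 6 highest, and the extremes differed 1.97-fold.

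RPL3, on chromosome 5 from 8922697 to 8929768, had 83.26, 220.0, 84.9, 76.73, 102.6 and 93.33 CPM in High MB pigs 1 to 6, and 46.67, 65.89, 82.48, 205.0, 60.73 and 83.71 CPM in Low MB pigs 1 to 6. High MB pig 2 and Low MB pig 4 stood apart well above the rest, while the other 10 pigs lay between 46.67 and 102.6. The groups overlapped, and edgeR gave a log2 fold change of 0.28 (SE 0.35) with an adjusted p of 0.851. It was 0.71 without Low MB pig 4 and -0.03 without High MB pig 2. In the exact two-sided permutation test over 924 regroupings, mean log2 CPM was 0.35 higher in High MB pigs (p = 0.368, adjusted over 3 tests to 0.708, smallest possible p 0.00216).

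RPL3L, on chromosome 3 from 40004907 to 40016702, had 284.8, 217.3, 335.2, 302.4, 303.2 and 313.9 CPM in High MB pigs 1 to 6, and 351.4, 276.0, 335.2, 255.9, 280.2 and 236.8 CPM in Low MB pigs 1 to 6. The range of the Low MB group began above the lowest High MB pig and ended above the highest, so the groups overlapped almost wholly. The log2 fold change was 0.02 (SE 0.13, 95% interval -0.26 to 0.30), with an adjusted p of 0.985 in edgeR, and the exact permutation test gave p = 0.89 (adjusted 0.89). RPL3L and RPL3 share 72.5% of aligned coding bases and at most 32 consecutive bases of transcript, shorter than the 150-base reads. RPL3L starts 1796 bases after the end of RPS2 on the same strand.

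Per coding length, RPL3L exceeded RPL3 in 11 of 12 pigs. The ratio was 3.26, 0.941, 3.76, 3.76, 2.82 and 3.2 in High MB pigs 1 to 6, and 7.17, 3.99, 3.87, 1.19, 4.4 and 2.7 in Low MB pigs 1 to 6. The lowest ratios were those of High MB pig 2 and Low MB pig 4, and RPL3L made up 48.5 and 54.3% of the pair there, against 72.9 to 87.8% in the other 10 pigs. The log2 ratio of counts was lower by 0.33 in High MB pigs on average, a difference of -0.33 with p = 0.472 in the exact permutation test (adjusted 0.708). Leaving out single pigs gave values from -0.64 to -0.03, and without both pigs of high RPL3 it was -0.33 again.

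**Figure D5:**
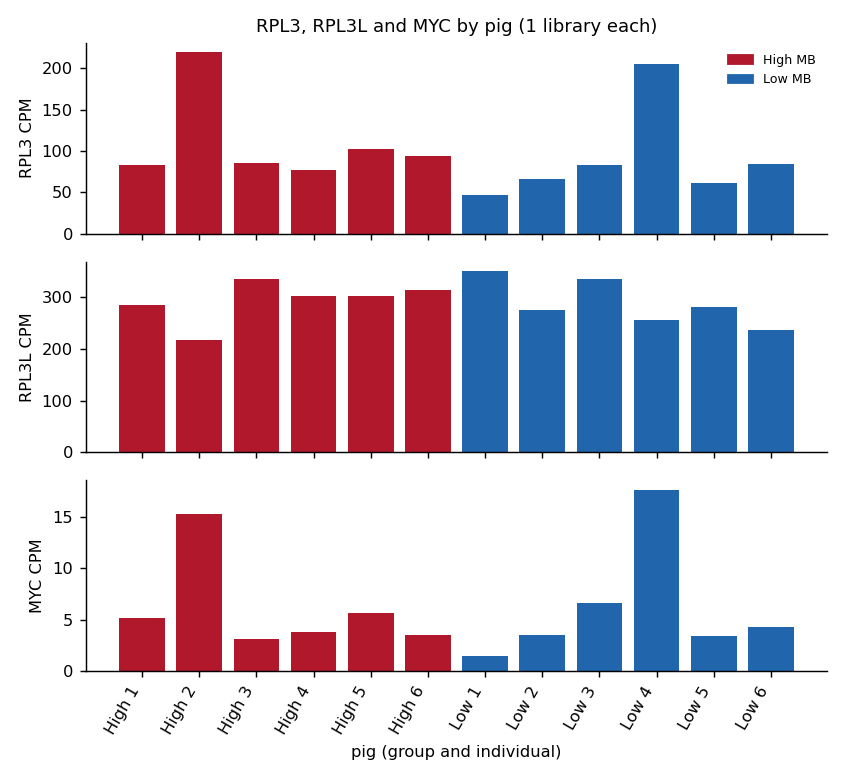
CPM of RPL3, of its muscle paralogue RPL3L and of MYC by pig, High MB in red and Low MB in blue, with 1 library per bar. High MB pig 2 and Low MB pig 4 have the highest RPL3 (220.0 and 205.0) and MYC (15.24 and 17.63), and their RPL3L (217.3 and 255.9) is the lowest and the third lowest of the 12.

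Among genes with a symbol, log2 CPM of RPL3 correlated most over the 12 pigs with CD44 (r = 0.96), a cell adhesion receptor, followed by SKIC8 (0.95), DKC1 (0.94), MYC (0.94) and ARHGAP21 (0.93). A gene without a symbol, ENSSSCG00000000089, had the highest r of all (0.997). Whether it shares a locus or reads with RPL3, and so bears on the RPL3 level, was not tested. MYC, a transcription factor that drives ribosome production, had 15.24 CPM in High MB pig 2 and 17.63 in Low MB pig 4, and 1.513 to 6.619 in the other 10. DKC1, which modifies ribosomal RNA, had 40.18 and 40.23 CPM in those pigs and 23.71 to 31.31 in the others. Because 2 pigs stand apart, no r over 12 pigs is read as a relation. Over the other 10 pigs, RPL3 and RPL3L had r = -0.18 (permutation p = 0.609, adjusted 0.929) and Spearman's rho = 0.07 (permutation p = 0.864, adjusted 0.916). RPL3 and MYC had r = 0.77 (permutation p = 0.0145, adjusted over 9 relations to 0.131) and rho = 0.39 (permutation p = 0.262, adjusted 0.786). The r with MYC was 0.33 when the 2 most distant of the 10 pigs were left out, so it rested on those pigs. Among the other relations over the 10 pigs, RPL3 and POLR1A had r = -0.62 (permutation p = 0.0555, adjusted 0.25) and rho = -0.62 (permutation p = 0.0594, adjusted 0.534). With UBTF, r was -0.5 (permutation p = 0.133, adjusted 0.398). With EEF1A2, EEF2, TPT1, NPM1 and FBL, r lay between -0.1 and 0.15.

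Markers of other cell types were examined in the same pigs. The 4 macrophage markers summed to 85.16 CPM in High MB pig 2 and 38.17 in Low MB pig 4, against 18.36 to 49.86 in the others, and ACTA1 and CKM summed to 26000 CPM in High MB pig 2 against 48090 to 97120 in the others. Their part in the RPL3 values was not tested. Between groups, the 4 macrophage, 4 adipocyte and 4 fibroblast markers all had positive fold changes, with medians of 0.79, 0.92 and 0.65 on the log2 scale beside -0.016 for all genes. Of them 3, 1 and 2 were higher at an unadjusted p under 0.05, as were 5.33% of all genes, and 0 were called, as of all genes. Both erythroid markers tested passed that level with a median of 0.75, and 0 of 3 endothelial, 3 T cell, 1 B cell, 2 satellite cell and 2 muscle markers did, with medians of 0.27, 0.29, 0.21, -0.09 and -0.21.

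Lists of factors that make and serve ribosomes were read against all genes, of which 0% were called and 5.33% were higher and 3.13% lower in High MB pigs at an unadjusted p under 0.05. Of 57 tested ribosome assembly factors, 0 were called, and 0 were higher and 1 lower at that level. The median log2 fold change of this list was -0.08 beside -0.016 for all genes, with 15 of 57 positive beside 46.9%. The lowest p was that of PNO1, which helps form the small subunit, at 48.86 CPM in High MB and 56.54 in Low MB pigs (log2 fold change -0.21, SE 0.10). NPM1 and FBL, abundant nucleolar proteins, had log2 fold changes of -0.11 (SE 0.13) and -0.02 (SE 0.12). The summed level of the assembly factors was 2443 CPM in High MB pig 2 and 2438 in Low MB pig 4, against 1688 to 1986 in the other 10 pigs.

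Of 24 tested genes on a mixed list of RNA polymerase I with its initiation factors, transcription regulators such as MYC and YY1, and mTOR signalling, 0 were called, and at an unadjusted p under 0.05, 0 were higher and 4 lower (5.33 and 3.13% of all genes), with a median log2 fold change of -0.15 beside -0.016 for all genes. Those 4 were POLR1A and TAF1A of the polymerase I machinery, and MTOR and LARP1, which act on TOP messages. POLR1A, the largest subunit of the polymerase that makes ribosomal RNA, had 25.4 CPM in High MB and 31.69 in Low MB pigs (log2 fold change -0.32, SE 0.11, adjusted p 0.563 in edgeR). MTOR, a kinase, and LARP1, an RNA-binding protein, had -0.31 (SE 0.11) and -0.27 (SE 0.11), both at an adjusted p of 0.563 in edgeR. UBTF and MYC had -0.09 (SE 0.09) and -0.01 (SE 0.53). Of the 24 genes, 6 had a positive fold change, beside 46.9% of all genes.

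Translation factors and other genes with TOP messages were taken as further lists. Of 19 tested genes on the TOP list, 0 were called, and at an unadjusted p under 0.05, 1 was higher and 1 lower. The median log2 fold change of this list was -0.09, with 2 of 19 positive beside 46.9% of all genes. The gene that was higher was VIM, an intermediate filament protein, with 0.63 (SE 0.21), and the other was the initiation factor EIF2A, with -0.27 (SE 0.09), both at an adjusted p of 0.563 in edgeR. EEF2 and TPT1 had -0.12 (SE 0.14) and -0.10 (SE 0.12). Among 27 other translation factors, 0 passed in either direction, the median was -0.15, and 2 of 27 were positive. EEF1A2, the muscle form of elongation factor 1A, had -0.04 (SE 0.16). Of 5 tested ribosomal proteins and paralogues with other symbols, 0 passed, the median was -0.04 and 2 were positive.

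Among genes not found by the symbol rule, those that followed the mean of the 47 most closely over the 12 pigs were ENSSSCG00000003930 (r = 0.97), ENSSSCG00000003042 (0.92), ENSSSCG00000018746 (0.88) and ENSSSCG00000011952 (0.88), which had no symbol and could be ribosomal protein genes themselves, and CYLD (0.87). Of the 48 genes, 7, among them RPLP1, RPL14, RPL36A and RPS23, each have 1 stretch of at least 150 bases elsewhere in the assembly with at least 98% identity, so reads from them can be lost as not unique. The other 41 genes have none. The share of reads not uniquely aligned was lowest in High MB pig 2, at 4.4%, and highest in Low MB pig 1, at 6.62%, and its part in the values of those 7 genes was not tested.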

How the data were processed

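Total RNA of Longissimus dorsi was sequenced as paired 150-base reads. According to the submitters' notes and the study's methods, the authors trimmed the reads with Trim Galore, aligned them with HISAT2 to Sscrofa11.1 and deposited raw HTSeq counts per gene and per transcript, with no normalization. The strand and overlap settings were not given in the sources used here, so reads of overlapping or antisense genes cannot be told apart, and the counts may leave out part of the reads of a gene. Lines naming no gene were left out: reads on no feature (47.8 to 49.4% of the fragments listed), ambiguous reads (0.802 to 1.13%) and reads aligned more than once. Transcript tables were not used, since no table paired transcripts with genes.

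Gene counts were tested on all genes with edgeR 4.0.16 (R 4.3.3; filterByExpr, TMM, quasi-likelihood test, Benjamini-Hochberg). The call needed an adjusted p under 0.10 together with a log2 fold change beyond 0.58 in either direction, counted positive where higher in High MB. Standard errors came from the test statistic, intervals from its degrees of freedom, and log2 CPM used a prior count of 2. The scripts were tested on simulated data. Symbols came from an Ensembl name table, and positions, lengths and sequences from RefSeq (Sscrofa11.1), with a curated transcript first and then the longest coding sequence. Permutation tests of correlations used 100000 resamples.

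The members and lists were chosen with earlier results of these data known. Genes were named by role, as the 5 lowest p-values in each direction, the 3 highest and lowest levels per length and the 3 largest and smallest SDs, and by failing the filter. CD44, SKIC8, DKC1, ARHGAP21, TAF1A and ENSSSCG00000000089 were named after their values were seen, as was the relation of RPL3 to other genes. Alternatives were RLE and upper quartile factors, library totals alone, DESeq2 1.42.0, no filter, at least 10 counts in every pig, robust estimation, depth class as a covariate, individual number as a block, the 10 most abundant genes removed, other thresholds and denominators, and each pig left out. Fits within depth classes, leaving out both pigs of highest RPL3, and exon length in place of coding length were added after the data were seen. High MB and Low MB pigs with the same individual number did not deviate together (correlations from -0.212 to 0.144), so the numbers do not pair the pigs. Some of the genes counted here are not reported by name and are not drawn in the plots by gene.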

Additional observations from a re-analysis of the deposited data

Results flagged for a closer look

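Each group of 6 pigs was examined for a highest or lowest pig far from the other 5 in 25 results, which made 50 groups, and 5 stood apart by Dixon's criterion. Chance alone sets apart about 1 group in 20. RPL3 was far above the other High MB pigs in High MB pig 2, at 7.78 on the log2 CPM scale, and the log2 ratio of RPL3L to RPL3 counts was far below the others in that pig, at -0.018. These values share the RPL3 count, so they are not separate observations. In the Low MB group, RPL5 was far above the others in Low MB pig 4 (9.17 log2 CPM), the pig in which 31 of 47 ribosomal protein genes were highest, and RPS18 was far below in Low MB pig 2 (7.15 log2 CPM), the pig in which 20 of 47 were lowest. RPS27A was far below the other High MB pigs in High MB pig 3 (7.94 log2 CPM). RPL3 in Low MB pig 4, at 205.0 CPM against 46.67 to 83.71 in the other Low MB pigs, did not meet the criterion.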

How the results depend on the processing

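No ribosomal protein gene was called under any of the 27 alternatives of that count, and few genes were called at all: 29 of 19220 genes (0.151%) with DESeq2, 1 within the deeper libraries and 0 in the other refits. The count at an unadjusted p under 0.05 was 1, ranged from 0 to 2 with single pigs left out, and was 2 without both pigs of highest RPL3 and 0 within the libraries under 50000000 counts. It was 2 without Low MB pig 4 and 0 without High MB pig 5, Low MB pig 2 or Low MB pig 6, the lost gene being RPLP2. The median log2 fold change of the 47 genes was -0.039 to 0.051 with each pig left out and 0.11 within the deeper libraries. The RPL3L log2 fold change, 0.018, was -0.034 to 0.113 with each pig left out and below 0 without High MB pig 3 (-0.025), High MB pig 6 (-0.003) or Low MB pig 6 (-0.034), and within the libraries under 50000000 counts (-0.01). RPL3 turned to -0.028 without High MB pig 2, with a range of -0.028 to 0.711. RPL10 turned to 0.025 without both pigs of highest RPL3 and to 0.165 within the deeper libraries, where RPS4X turned to 0.041. The causes were not tested. RPLP2, RPL23, RPL37, RPS18, RPS29, RPLP1, RPL23A and RPS27L kept their direction under all 25 alternatives of each, but leaving out 1 pig moved several by over 1.5 times. Without Low MB pig 4, RPL23 was 0.204, RPL37 0.234, RPS18 0.177, RPS29 0.193, RPL23A -0.041, RPS4X -0.036 and RPL10 -0.03. Without High MB pig 2, RPLP1 was -0.1, RPS27L -0.047 and RPL10 -0.032. Without Low MB pig 2, RPS18 was 0.067 and RPS29 0.052, and without High MB pig 6, RPS18 was 0.176 and RPL10 -0.151. The difference in share was 0.0305 to 0.1183 percentage points, and the log2 ratio of RPL3L to RPL3 was -0.637 to -0.028, with each pig left out. With the individual number as a replicate block, 0 genes were called, 1 passed an unadjusted p of 0.05, the median log2 fold change was -0.015, RPL3L was 0.019, and the ratio differed by -0.333 (exact sign-flip test, p = 0.531, smallest possible 0.0312), so the block changed no call. RPL10L had 0 counts in every library, so depth sets the limit on its level.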
